A study of Drosophila melanogaster with 4 samples.

Results

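Transcripts represented by cDNA clones of Drosophila embryo libraries were compared between Hdac1 mutant and wild type larvae. The clones were chosen by name alone: non-control array targets called LD or RE followed by 5 digits, 97 LD clones and 135 RE clones, 232 of the 25778 targets on the array. A target here is 1 name in the array design, and the brightest of its probes that passed the detection filter stands for it. Larvae were grown at 25 °C and taken at the 3rd instar. The wild type was Oregon-R, and the mutant carried the alleles Hdac1[303] and Hdac1[def8], 1 on each homologue, in the Oregon-R background. Each of 4 arrays, labelled as biological replicates, carried wild type RNA in Alexa Fluor 555 (green) beside mutant RNA in Alexa Fluor 647 (red), so that 1 array gave 1 ratio of mutant over wild type. The dyes kept this orientation on all 4 arrays, and a dye effect on a probe cannot be told apart from an effect of genotype. The sex of the larvae and the number of animals per sample are not given in the sources used here, and the p-values measure the spread between these 4 arrays.

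HDAC1, also called Rpd3, is a histone deacetylase. It removes acetyl groups from histone tails and is the catalytic subunit of corepressor complexes, among them Sin3 and NuRD, that act at many genes. The LD and RE names come from large cDNA sequencing projects: LD clones were picked from a mixed-stage embryo library, and RE clones from a normalized embryo library, in which abundant cDNAs had been depleted so that rarer transcripts could be found. A clone name records where a transcript was once cloned. It does not restrict the transcript to the embryo, and many such transcripts are made in larvae as well.

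The share of non-control spots that the scanner software marked as well above background ran from 84.8% to 86.5% over the arrays for wild type RNA and from 84.0% to 86.8% for mutant RNA. No spot was saturated (0 on each array), and all 4 arrays lay on 1 slide read in 1 scan. Loess normalization set the centre of each array, and a ratio says how far a transcript lay from that centre. HDAC1 itself had no target that could be paired with it (0), and its level was not analysed here. In RNA from larvae, fewer cells of a type and less RNA per cell cannot be told apart. The number of arrays limits the precision of every value.

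Most of the embryo clone transcripts were detected in both genotypes. Of the 232 clones, 214 passed the filter for the test (detection, meaning a signal well above background, on 3 or 4 arrays in 1 genotype or both) and 18 did not, 4 LD and 14 RE clones. Of the 214, 203 met that condition in both genotypes, 5 in wild type alone and 6 in the mutant alone. The 18 clones that did not pass include RE26528, assigned to the gene CG13049, and RE57135, assigned to the pseudogene CR14798.

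More embryo clone transcripts were higher than lower in the mutant. Of 214 tested clones, 169 differed between the genotypes (limma, Benjamini-Hochberg adjusted p under 0.05 over all targets), and over all 21944 tested targets the share called was 75.5%. The mutant level was higher for 104 clones, 48.6% of those tested, where the share over all targets was 38.1%. It was lower for 65 clones, 30.4%, where the share over all targets was 37.5%. Higher calls thus made up 61.5% of the calls among embryo clones and 50.3% among all other targets. Of the clones that met the detection condition in both genotypes, 98 were higher and 62 lower. The counts of other targets under that condition are not given here. A stricter filter, detection on every array in both genotypes, was applied to clones and other targets alike. It left 97 of 199 clones higher and 60 lower, beside 7421 higher and 7359 lower of 19669 other targets. The difference between the clones and the other targets was not tested, because clones are not replicates of a genotype.

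Changes of at least 2-fold leaned the opposite way from those of the array as a whole, but those of at least 4-fold did not. Among the clones, 36 were at least 2-fold higher (16.8%, against 11.0% of all targets) and 22 at least 2-fold lower (10.3%, against 16.3% of all targets). At least 4-fold, 2 of the 214 tested clones were higher (all targets, 1.59%) and 7 lower (all targets, 4.87%), so both leaned to falls. The typical size of change was close to that elsewhere on the array: the median absolute log2 ratio was 0.56 for the clones and 0.60 for other targets. Of the 169 called clones, 58 changed by at least 2-fold and 111 by less. Over all targets, 5995 of 16577 calls were at least 2-fold. The 4 arrays gave 1 sign for 178 clones (83.2%, against 80.9% of all targets), and the normalized signals of the genotypes did not overlap over the 4 arrays for 131 clones (61.2%, against 61.9% of all targets). These latter shares lie near the background.

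The lean towards higher levels was seen on every array and for both libraries. The median log2 ratio of the 214 clones exceeded that of the other targets by 0.15 on replicate 1, 0.16 on replicate 2, and 0.21 on replicates 3 and 4. Over the averaged ratios the median was 0.24 for the clones and 0.02 for other targets, a difference of 0.22. This lay above the difference on each array, and the 4 arrays' differences had an SD of 0.03. The quartiles of the clones were -0.44 and 0.69, and those of other targets -0.65 and 0.55. The LD and RE clones were alike in this description. Of 93 LD clones 45 were higher and 28 lower. The median difference was 0.22 over the averaged ratios and from 0.11 to 0.22 on the 4 arrays (SD 0.05). Of 121 RE clones 59 were higher and 37 lower. The median difference was 0.20 over the averaged ratios and from 0.16 to 0.19 on the 4 arrays (SD 0.01). With no detection filter, over all 232 clones, the difference fell to 0.11 for all clones, 0.17 for LD and 0.092 for RE.

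**Figure D1:**
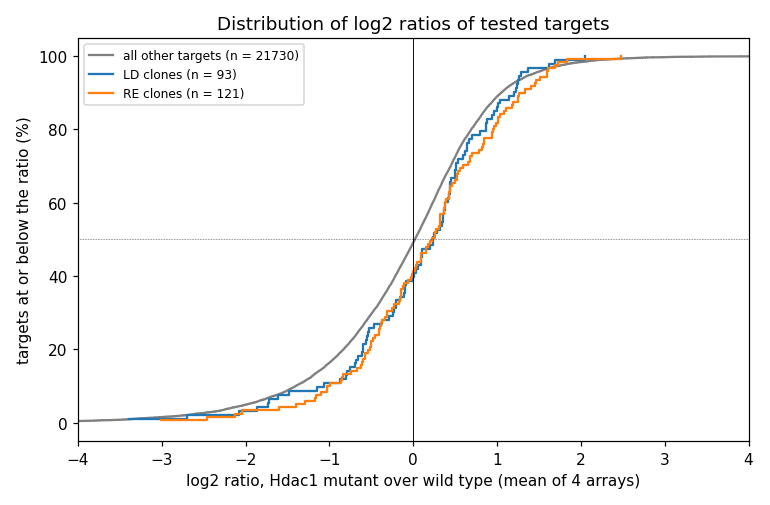
Cumulative distribution of the log2 ratio of mutant over wild type, mean of 4 arrays, for 93 LD clones, 121 RE clones and 21730 other tested targets, with a solid line at 0 and a dotted line at 50% of targets. The x axis shows -4 to 4, and both clone curves lie to the right of the curve of other targets over most of the middle range.

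Clones of other libraries gave a mixed picture beside these values. The RH clones, from a head library, had 39 higher and 20 lower calls among 80 tested, and their median minus that of targets other than embryo clones was 0.19. The GH clones, also from a head library, had 42 higher and 48 lower among 109 and a median difference of -0.17. The AT clones, from a testis library, had 35 higher and 66 lower among 123 and a median difference of -0.39. A positive median was therefore not seen for embryo clones alone. The male-specific RNAs of dosage compensation were lower in the same larvae: the 2 targets of roX2 stood at -2.19 ± 0.57 and -1.17 ± 0.32 and the 2 of roX1 at -0.63 ± 0.29 and -0.49 ± 0.43 (log2 ratio, SD, n = 4). The roX1 target at -0.49 was above 0 on replicate 1, at 0.11. The part of the sex of the larvae in the clone values was not tested. Spike-in control spots, whose amounts are unknown here, had a median log2 ratio from -0.98 to -0.18 over the arrays, with a mean of -0.65 ± 0.36 (SD, n = 4). Of the 214 clones 127 (59.3%) lay above 0, against 50.8% of other targets, and 179 (83.6%) above that mean, against 75.1% of other targets.

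The largest rises among the embryo clones belonged to transcripts with no gene name here. RE73276 had log2 ratios of 2.67, 2.14, 2.52 and 2.57 on replicates 1 to 4. All 4 arrays were high, with a mean of 2.47 ± 0.23 (SD, n = 4), which corresponds to 5.56-fold and passed the limma test with an adjusted p of 1.2e-07. Detection was on 4 arrays in the mutant and on 2 in wild type. RE73276 thus passed the filter through the mutant alone, and its p-value gives no independent support for a difference. The fold depends on how the dim wild type signal is treated. The log2 ratio was 4.37 with the scanner software's own ratio and 4.11 with the scanner's background subtraction.

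LD36183 gave 2.21, 2.79, 1.39 and 1.80 on the 4 arrays, a mean of 2.05 ± 0.60. It was detected in both genotypes: the log2 signal averaged 12.2 for wild type RNA and 14.3 for mutant RNA, and the 2 sets of signals did not overlap. RE38722 (1.83 ± 0.23), RE37763 (1.73 ± 0.16) and RE74511 (1.69 ± 0.39) also passed the test as higher, with no overlap between the genotypes' signals. With median centring in place of loess these 3 rises were larger, at 2.66, 2.54 and 2.56. LD45447 rose by 1.69 ± 0.22, RE20516 by 1.60 ± 0.18 and RE40051 by 1.59 ± 0.20.

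RE04224 was the least even of the large rises. Its log2 ratios were 3.04, 1.58, 0.50 and 1.32 on replicates 1 to 4, all above 0 but spread over more than 2 units, and the mean was 1.61 ± 1.06 (limma adjusted p = 9.7e-04). The remaining large rise was LD26673, with log2 ratios between 1.36 and 1.94 on the 4 arrays and a mean of 1.62 ± 0.25. It is 1 of 2 clones assigned to CR14033, annotated as a pseudogene on arm 2L.

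The largest fall was that of LD10305, assigned to CG31522 on arm 3R, a gene predicted to encode a fatty acid elongase. Its log2 ratios were -3.34, -3.48, -3.04 and -3.69, low on every array. It fell by 3.39 ± 0.27 (SD, n = 4) with an adjusted p of 3.3e-08 from limma, and its log2 signal averaged 12.2 for wild type RNA and 8.84 for mutant RNA. RE60154 followed with -2.42, -3.72, -2.71 and -3.19, a mean of -3.01 ± 0.57, which corresponds to 8.06-fold. With the scanner's background subtraction RE60154 stood at -3.64.

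LD05592 gave -3.09, -2.35, -2.59 and -2.77, a mean of -2.70 ± 0.31. RE09269, assigned to CG14191 on the X chromosome, gave -2.22, -2.76, -2.12 and -2.72, a mean of -2.46 ± 0.33. In each of these transcripts the signals of the genotypes did not overlap. RE14763 stood at -2.12 ± 0.42, LD42550 at -2.08 ± 0.24 and RE52449 at -2.05 ± 0.28, and all 3 passed the test as lower. RE52449 was at -1.43 with median centring, and the second probe of LD42550 at -0.99 ± 0.40. LD10051 (-1.86 ± 0.49), LD11109 (-1.73 ± 0.26) and LD43096 (-1.72 ± 0.24) completed the 10 largest falls. The 2 spots of the LD10051 probe differed by 1.22 on the log2 scale on 1 array, where the median difference between repeated spots of 27 probes was 0.09.

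**Figure D2:**
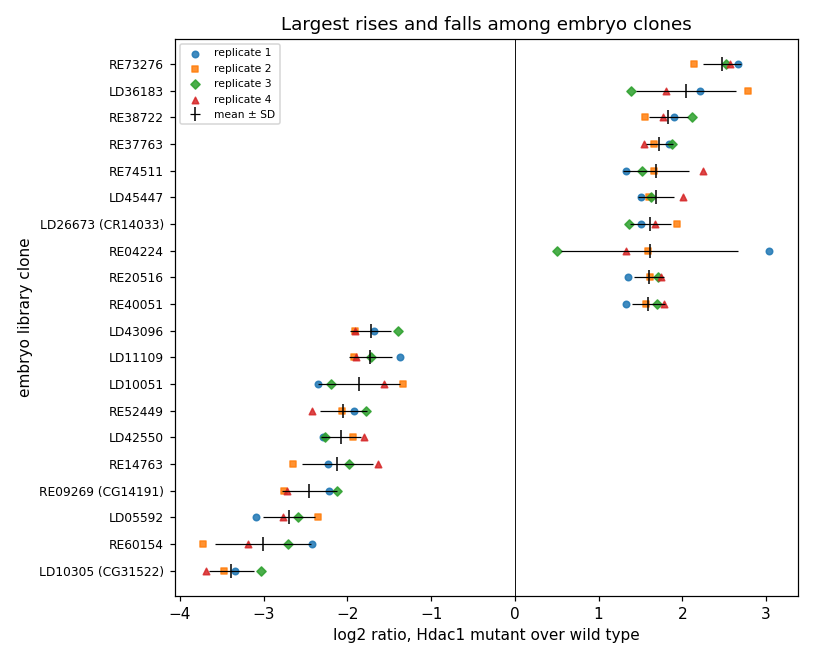
Log2 ratios of mutant over wild type on the 4 arrays for the 10 largest rises and 10 largest falls among embryo clones, 1 clone per row (y axis), with 1 symbol per replicate and the mean and SD in black. The falls reach -3.39 (LD10305) and the rises 2.47 (RE73276), and RE04224 has the widest spread.

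Genes could be named for 31 of the 232 clones, through clone names that the Release 6 gene table lists as synonyms. They represent 30 genes, and 29 of the clones were tested. Of these 11 were higher, 10 lower and 8 not past the threshold, beside shares of 38.1% higher and 37.5% lower over all targets. Whether the named clones differ from the other embryo clones was not tested. The same shares apply to the counts by kind of gene below, which are too small for a statement about a kind. The strand and position of the probes were not checked, so each value is that of a clone assigned to a gene. Of the 8 pathway lists drawn up for these larvae, 7 held no named clone and the chromatin list held 1, Hmt4-20, which passed the test as lower.

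Of 4 clones assigned to transcriptional regulators of development, 1 rose, 1 fell and 2 did not pass the threshold. The clone RE58095 of otp, a homeobox gene of neural and gut development, gave 0.63, 0.78, 0.76 and 1.20. It rose by 0.84 ± 0.25 (SD, n = 4), and the adjusted p from limma was 1.2e-04. LD16029 of eya, a transcription cofactor of the retinal determination network, fell by 0.47 ± 0.14. Detection was on 3 arrays in wild type and on 0 in the mutant. LD16029 thus passed the filter through wild type alone, and its call gives no independent support for a difference. It stood at -1.94 with the scanner software's ratio, -1.30 with median centring and -1.13 with the scanner's background subtraction. LD35748 of retn, an ARID-domain transcription factor, was at -0.21 ± 0.11 and LD38807 of grh, the epidermal factor Grainy head, at -0.11 ± 0.14, neither past the threshold. Both depend on processing: retn was at 0.56, past the threshold, with median centring, and grh passed as lower at its second probe (-0.44) and in the mean over its probes (-0.25).

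Chromatin genes were named for 2 clones, of which only the first is on the chromatin list. LD36415 of Hmt4-20, a histone H4 lysine methyltransferase gene, had log2 ratios of -0.29, -0.12, -0.28 and -0.30 and fell by 0.25 ± 0.08 (limma adjusted p = 0.043). With any single replicate left out it no longer passed (adjusted p from 0.059 to 0.15), nor did it with an offset of 20, with the scanner's background subtraction or ratio, or without the pairing of channels by array (values from -0.26 to -0.24). With median centring it passed as higher, at 0.51. RE09126 of Pa1, a component of a histone H3 methyltransferase complex, was at 0.20 ± 0.11, not past the threshold, and passed it as higher with median centring (0.47) and with the scanner software's ratio (0.35).

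Of 4 clones assigned to genes of adhesion, guidance and signalling, 2 fell and 2 did not pass the threshold. LD07388 of caps, a leucine-rich repeat protein of axon targeting, fell by 0.37 ± 0.14, and RE63453 of sdk, an immunoglobulin-superfamily adhesion protein, fell by 0.32 ± 0.12 (log2, SD, n = 4). The fall of caps was not past the threshold with median centring (-0.054), with the scanner software's ratio (-0.22) or without the pairing of channels by array (-0.37, adjusted p = 0.055), and that of sdk was not past it with median centring (-0.36). RE36155 of Sema1a, a transmembrane semaphorin and named here after its value was seen, was at 0.26 ± 0.21, above 0 on 4 arrays and short of the threshold (adjusted p = 0.058). Its second probe gave 0.31 ± 0.17 and passed, as did median centring at 0.96 and the mean over its probes at 0.29. LD02307 of myo, which encodes the TGF-beta family ligand Myoglianin and lies on chromosome 4, was at -0.21 ± 0.25, not past the threshold. It passed as lower with 3 of the alternatives, with values from -0.54 to -0.42.

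Of 6 further clones with a gene name, 3 rose and 3 did not pass the threshold. RE23580 of Sdhaf3, an assembly factor of succinate dehydrogenase, gave 0.80, 0.79, 0.84 and 1.32 and rose by 0.94 ± 0.26 (SD, n = 4), and the adjusted p from limma was 6.3e-05. With median centring it stood at 1.57. LD28657 of Madm, a pseudokinase gene, rose by 0.34 ± 0.16. RE58243 of GramD1B, named for its GRAM domain, rose by 0.32 ± 0.12. The call of Madm was lost without replicate 1, 2 or 3 (0.30, 0.31 and 0.34) and without the pairing by array. That of GramD1B was lost without replicate 2 or 3 (0.30 and 0.32) and with median centring (0.19). The deubiquitinase clone LD12764 (Usp47) was at -0.0073 ± 0.13, the eye pigment gene clone RE06767 (cl) at 0.038 ± 0.16 and RE14222 (Mayo) at 0.025 ± 0.27. None of these 3 was past the threshold, and their signs differed between arrays. The cl clone passed as higher with median centring (0.70).

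Of the clones assigned to noncoding transcripts, 2 lncRNA clones were lower and 2 pseudogene clones higher. RE06388 of lncRNA:CR32194 fell by 0.86 ± 0.28. Detection was on 3 arrays in wild type and on 0 in the mutant. RE06388 thus passed the filter through wild type alone, and its call gives no independent support for a difference. It stood at -3.04 with the scanner software's ratio, -2.01 with the scanner's background subtraction and -1.61 with median centring. RE30084 of lncRNA:CR30009 fell by 0.85 ± 0.27 (-1.51 with the scanner's background subtraction). The same gene had 2 RefSeq targets on the array, at -0.55 ± 0.25 and -2.39 ± 0.37, so all 3 of its targets were lower, by unequal amounts. The other clone of CR14033, LD26231, gave -0.10, 0.48, 0.67 and 0.71, a mean of 0.44 ± 0.37, past the threshold. LD26673 exceeded it on every array, by 0.69 to 1.60 on the log2 scale. A second probe of LD26231 was at -0.38 ± 0.13 and passed as lower, and without replicate 2, 3 or 4 its first probe was no longer past the threshold (0.43, 0.37 and 0.35), as was the mean over both probes (0.029).

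The clones of genes known only by a CG number, named after their values were seen, were RE57454 of CG13102 (1.08 ± 0.34), RE25177 of CG13159 (1.01 ± 0.19), LD11861 of CG15233 (0.64 ± 0.24) and LD21969 of CG1024 (0.62 ± 0.21), each higher, and RE24439 of CG13678 (-1.41 ± 0.17), which was lower. CG13159 stood at 1.60 with the scanner software's ratio. By chromosome arm, 4 of 7 named clones of 2L and 4 of 7 of 2R were higher and 1 lower on each. Of 4 clones of 3L and 4 of the X chromosome, 3 were lower and 0 higher on each, and of 6 of 3R, 3 were higher and 2 lower. These counts are too small for a statement about an arm.

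**Figure D3:**
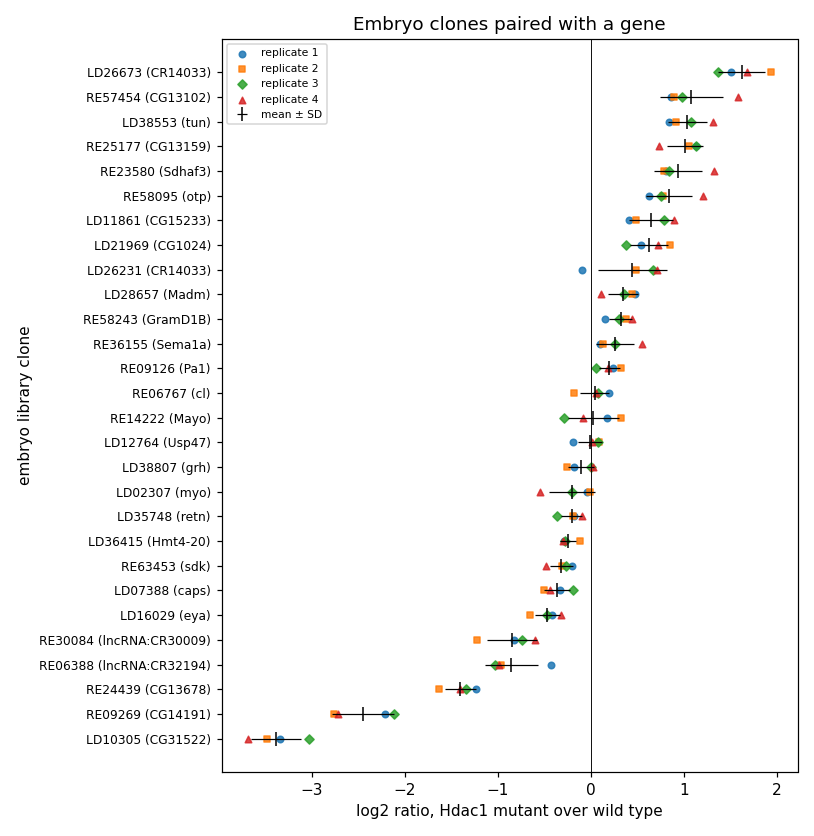
Log2 ratios of mutant over wild type on the 4 arrays for 28 of the 29 tested embryo clones assigned to a gene, 1 clone per row (y axis), with 1 symbol per replicate and the mean and SD in black. Values run from -3.39 for the clone of CG31522 to 1.62 for LD26673 of CR14033, and the 2 CR14033 clones lie apart.

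Of the tested clones, 3 were detected on all 4 arrays in 1 genotype and on none in the other. They passed the filter through the detected genotype alone, so their p-values give no independent support for a difference. For such clones the dim genotype has only a bound, which is open to dye bias. It was computed per channel from the higher of the array's lowest detected signal and the clone's own signal. For LD11736 and LD38553 the clone's own signal was the higher, so the fold given is that of the fitted ratio and not a lower limit. LD11736 was detected in wild type alone. Its wild type log2 signals were 8.64, 8.90, 8.10 and 8.38 and its mutant signals 7.36, 6.75, 6.83 and 6.65, without overlap. LD11736 was 3.05-fold lower in the mutant (limma adjusted p = 8.0e-06). LD38553 of tun was detected in the mutant alone, with log2 signals from 7.88 to 8.18 in the mutant and from 6.79 to 7.27 in wild type. It was 2.05-fold higher (limma adjusted p = 2.1e-05). RE53348, also detected in the mutant alone, was at least 1.44-fold higher (limma adjusted p = 0.0015). The scanner software's log2 ratio was -3.28 for LD11736, 3.12 for tun and 1.70 for RE53348, and with the scanner's background subtraction they stood at -3.43, 2.17 and 1.38. With median centring LD11736 was at -2.13 and tun at 0.51, below its fitted log2 ratio of 1.03. With the same centring in place of loess RE53348 was at -0.059 and not past the threshold, so its direction depends on the normalization used.

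Probes of 1 clone agreed in sign more often than not, with clear exceptions. Of 21 clones with at least 2 tested probes, the 2 brightest probes had the same sign for 17 (81.0%), against 75.4% of 4674 other targets. Of 15 clones called at the brightest probe, 9 were called in the same direction at the second, and 2 were called in opposite directions. These 2 were LD26231 and RE02263, named after their values were seen. Agreement of calls between probes was not counted for other targets. RE02263 gave -1.16 ± 0.28 at the brightest probe and 0.33 ± 0.18 at the second (SD, n = 4). The median absolute difference between the probes of a clone was 0.12, and the largest, that of RE02263, 1.49. Over these 21 clones, at the second probe, the median minus that of other targets was -0.018. Whether the probes of a clone read 1 transcript was not tested.

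**Figure D4:**
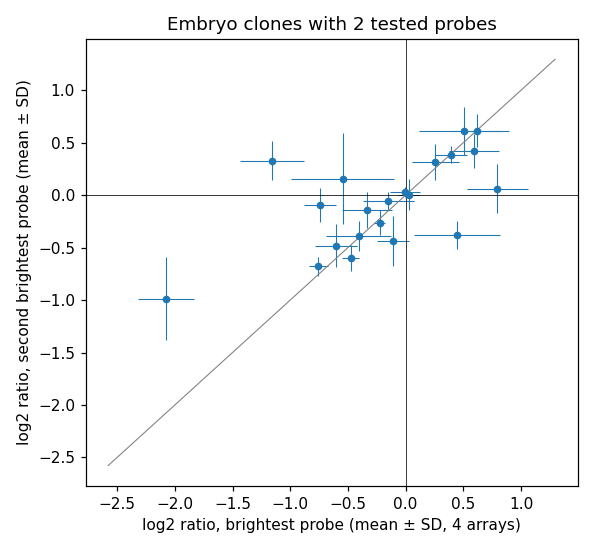
Log2 ratio of mutant over wild type at the brightest probe (x axis) and the second brightest probe (y axis) of the 21 embryo clones with at least 2 tested probes, as mean and SD of 4 arrays, with the line of equality in grey. Most points lie near the line, and RE02263, at -1.16 and 0.33, lies farthest from it.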

How the data were processed

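Per the file headers, Agilent Feature Extraction 10.5.1.1 was used by the authors to quantify each 2-colour array. The deposited intensity values are median pixel intensities of each spot and its local background, and background-subtracted signals. The deposited log10 ratio is red over green after the software's dye normalization, and the submitters' value table held the same log10 ratios (0 values differed on each array). Labelled cDNA was made from 15 µg of total RNA per sample with oligo-dT priming, per the labels' protocols.

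Medians were corrected with normexp at an offset of 50 and normalized by loess within arrays in limma 3.58.1 (R 4.3.3), control spots at weight 0. The 171 to 269 non-control spots per array marked as outliers were left out, and spots of a probe were averaged. lmFit and eBayes tested whether the mean log2 ratio over 4 arrays differed from 0, two-sided, with Benjamini-Hochberg adjustment over 21944 targets. The test pairs the genotypes within an array. Channel signals are values after loess and Aquantile. The fit was tested on simulated data for 21944 targets. It recovered 16.4% of 67 planted log2 changes of 0.5, 65.7% of 67 of 1 and 97.0% of 66 of 2. Of the simulated calls 6.3% were false, beside the 5% set by the threshold. Few targets were changed in the simulation, whereas 75.5% were called in the data, so these rates may not hold for the data.

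Named clones are the 10 largest rises and falls past the threshold with 1 sign on 4 arrays, among clones of genes not called by a bare CG or CR number up to 8 rises, 8 falls and the 8 smallest values, clones detected in 1 genotype, and list members. The lists covered embryonic patterning, cell cycle, chromatin, translation, respiration, RNA processing, cytoskeleton and traffic, and neurons. The members, lists and rules were chosen with earlier results of these data known. Of the 25778 targets, 273 could be paired with 1 gene of the Release 6 table, which was used for names, classes and arms; no coordinates were taken from it. The values of 1 named clone are not reported here.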

Additional observations from a re-analysis of the deposited data

Results flagged for a closer look

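A single array lay far outside the range of the remaining ones in 4 of the 51 sets of log2 ratios (mutant over wild type) that were examined, 48 for clones and 3 for group medians. Chance gives about 1 in 20, or 2.55. For LD36415 of Hmt4-20, replicate 2 was at -0.12 and the others from -0.30 to -0.28. For RE06388 of lncRNA:CR32194, replicate 1 was at -0.43 and the others from -1.03 to -0.97. For RE23580 of Sdhaf3, replicate 4 was at 1.32 and the others from 0.79 to 0.84. For RE57454 of CG13102, replicate 4 was at 1.58 and the others from 0.86 to 0.97.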

How the results depend on the processing

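Each of 13 alternatives kept more higher than lower calls among the embryo clones except the second brightest probe, which exists for 21 clones only (6 higher and 8 lower, 0 and 0 of them at least 2-fold, LD 3 and 6, RE 3 and 2, and 1673 and 1861 of 4674 other targets). With 1 replicate left out, the clones had 94 to 99 higher and 60 to 63 lower calls. Without the pairing by array (no replicate block) they had 90 higher and 58 lower calls, and no call turned. With median centring, under which the array-wide median shifted by 0.10 (log2), 104 were higher and 47 lower (RE 24 lower), 37 of the 169 calls were lost and 2 turned. The median difference of all clones was 0.26 with the scanner software's ratio, 0.11 with no filter and -0.018 at the second probe, and 0.19 to 0.24 with 1 replicate left out. That of LD clones was 0.36 with median centring, 0.28 with the scanner's background subtraction, 0.29 with the scanner's ratio, -0.079 at the second probe, and 0.16 to 0.25 with 1 replicate left out. That of RE clones was 0.17, 0.22, 0.25 and -0.018 in the same order, 0.22 with an offset of 20, 0.092 with no filter, and 0.17 to 0.23 with 1 replicate left out. The cause of these shifts was not tested.

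Of 48 named clones, 32 kept their call and direction under each alternative that gave them a value. Signs turned for LD12764 (0.011 with the mean over probes, 0.043 with median centring, 0.066 with the scanner's ratio, 0.029 at the second probe and -0.037 to 0.055 with 1 replicate left out), RE06767 (-0.014 to 0.11 with 1 replicate left out) and RE14222 (-0.073 to 0.13 with 1 left out), none past the threshold at these values. They also turned for LD26231 (-0.38 at the second probe), and with median centring for LD35748 (0.56), LD36415 (0.51) and RE53348 (-0.059). Fold sizes of transcripts detected in 1 genotype alone are limited by the signal over background.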
